A study of Mus musculus with 21 samples.

Results

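The genes flanking Myh6 on mouse chromosome 14 were examined in RNA sequencing of left ventricular tissue from mice carrying the R403Q mutation in Myh6 and from wild-type (WT) littermates. The members were listed by their position around Myh6, by a rule that names no measured value although earlier results of these data were known when it was set, and were found in the table of counts per gene through their Ensembl identifiers. Of 49 listed symbols, 47 matched the table and are described, and 2 were not analysed here. The 47 genes are protein coding and lie between positions 54360834 and 55900293 of chromosome 14 (GRCm38), a span of 1539 kb. The start of Myh6 divides them into 16 genes at lower and 31 at higher coordinates. The table held 55450 genes, of which 17309 had enough counts to be tested, among them 42 of the members. Cmtm5, Cpne6, Rec8, Ltb4r1 and Cbln3 were too low.

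The mice were male 129S6/SvEv animals labelled Myh6+/R404Q (R403Q), which denotes heterozygotes, or wild-type. They were fed a control diet (CD) or the same diet with empagliflozin (EMPA), an inhibitor of the sodium-glucose cotransporter SGLT2, at 0.15 mg/g of diet, from 9 to 10 weeks of age. The 4 groups were WT-CD (n = 5), R403Q-CD (n = 7), WT-EMPA (n = 5) and R403Q-EMPA (n = 4). The labels give 16 weeks of diet, whereas the paper places RNA sampling at 12 weeks of age, after 2 weeks of diet. The control diet mice came from 4 cages, as the labels give them, each with both genotypes. The EMPA mice came from 3 other cages, of which 2 held both genotypes, so diet and cage cannot be told apart.

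A mutation introduced by gene targeting is inherited together with the chromosome around it. Where the targeted cells and the recipient strain differ, genes near the mutation can carry other alleles than the wild-type littermates do, and these passenger differences can alter their expression. A difference tied to the chromosome would be present on either diet, which is why each diet was tested on its own and both were averaged. The counts carry no allele information, so neither the mutation nor the origin of the flanking sequence was read from them.

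The libraries held between 23491535 and 43539684 counts, and the 47 members together took 0.128 to 0.144% of them. Levels are given as CPM, the counts of a gene relative to a library size scaled by the trimmed mean of M values. R403Q-CD replicate 2 stood apart, with a median Spearman correlation to the other libraries of 0.9682 against 0.9856 or more elsewhere. Across the 21 libraries it had the lowest summed cardiomyocyte markers (42490 CPM) and the highest summed fibroblast (5342 CPM) and macrophage markers (355 CPM). Myh6, the alpha isoform of the cardiac myosin heavy chain, was at 43240 ± 2321 CPM in WT-CD, 32930 ± 7865 in R403Q-CD, 45220 ± 5482 in WT-EMPA and 34800 ± 4211 in R403Q-EMPA (SD). In this bulk tissue, fewer cells of a type and less RNA per cell cannot be told apart.

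The promoter windows of the members on which the results turn are given here, from 250 bases before to 50 after the start of transcription in RefSeq (GRCm38.p6, a C57BL/6J reference and not the strain of these mice). They are written 5′ to 3′ on the strand of the gene, and capitals mark the first 50 transcribed bases. Dcaf11 (chr14:55559779-55560078, plus strand), Slc7a7 (chr14:54417653-54417952, minus strand) and Jph4 (chr14:55116886-55117185, minus strand) are shown because they differed between genotypes. Nedd8 (chr14:55671831-55672130, minus strand) and Dhrs1 (chr14:55745635-55745934, minus strand) are shown because each faces another member across a shared start region.
Dcaf11: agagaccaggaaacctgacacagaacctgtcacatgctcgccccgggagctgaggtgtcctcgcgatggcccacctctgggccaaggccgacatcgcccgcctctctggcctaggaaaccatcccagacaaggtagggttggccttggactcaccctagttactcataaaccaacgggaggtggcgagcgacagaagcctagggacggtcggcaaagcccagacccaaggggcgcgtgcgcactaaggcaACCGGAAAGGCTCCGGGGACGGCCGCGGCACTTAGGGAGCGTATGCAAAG
Slc7a7: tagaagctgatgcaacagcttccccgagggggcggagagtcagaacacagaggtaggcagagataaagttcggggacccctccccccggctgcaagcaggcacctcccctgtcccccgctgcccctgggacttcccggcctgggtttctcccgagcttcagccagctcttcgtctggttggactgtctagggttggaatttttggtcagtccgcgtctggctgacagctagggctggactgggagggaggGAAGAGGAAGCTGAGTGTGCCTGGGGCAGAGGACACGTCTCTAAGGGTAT
Jph4: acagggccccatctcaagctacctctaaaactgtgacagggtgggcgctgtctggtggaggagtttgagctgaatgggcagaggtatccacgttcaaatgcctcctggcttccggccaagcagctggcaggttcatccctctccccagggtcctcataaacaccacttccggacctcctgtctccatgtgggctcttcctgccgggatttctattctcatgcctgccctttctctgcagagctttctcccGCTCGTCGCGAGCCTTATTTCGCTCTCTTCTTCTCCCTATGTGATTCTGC
Nedd8: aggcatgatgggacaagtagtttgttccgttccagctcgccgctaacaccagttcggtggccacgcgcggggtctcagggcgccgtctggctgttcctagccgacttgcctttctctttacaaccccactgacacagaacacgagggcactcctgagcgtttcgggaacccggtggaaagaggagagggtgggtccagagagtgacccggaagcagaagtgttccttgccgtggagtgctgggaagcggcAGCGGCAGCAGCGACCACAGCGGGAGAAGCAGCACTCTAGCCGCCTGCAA
Dhrs1: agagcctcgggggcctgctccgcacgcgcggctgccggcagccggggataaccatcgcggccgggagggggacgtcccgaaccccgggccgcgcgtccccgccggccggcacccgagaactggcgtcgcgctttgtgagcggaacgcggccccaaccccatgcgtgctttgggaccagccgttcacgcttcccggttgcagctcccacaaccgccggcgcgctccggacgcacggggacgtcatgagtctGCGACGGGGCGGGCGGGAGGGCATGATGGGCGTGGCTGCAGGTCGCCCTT
RefSeq windows were found for 45 of the 47 members, and for each the 1 window nearest its annotated start was used. All windows of the table were counted for comparison, where a gene can have several (5 for Slc7a7, 2 for Dcaf11). TATAAA was present on either strand in 1 of these 45 windows (2.22%), against 13.6% of all 32851 windows in the table. CCAAT was in 12 (26.7%, against 37.4%) and GGGCGG in 22 (48.9%, against 35.7%). None of the 3 motifs was in the Dcaf11, Jph4 or Nedd8 window shown, while GGGCGG began 221 bases before the Slc7a7 start, and overlapping copies of it lay at transcribed bases 7 to 12 and 11 to 16 of Dhrs1. A match is a description of the reference letters, and the bases of the mice themselves were not read.

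On the control diet no listed gene passed the edgeR test with all mice and no term for cage, and Dcaf11 did with that term. Of 42 members, 0 had an adjusted p under 0.05 in R403Q-CD against WT-CD (edgeR's quasi-likelihood test with Benjamini-Hochberg adjustment over all tested genes), against 1.44% of all 17309 genes. At an unadjusted p under 0.05 there were 8 members, or 19%, against 20.9% of all genes. All 8 were lower in R403Q-CD, namely Oxa1l, Prmt5, Dhrs4, Dcaf11, Fitm1, Rnf31, Tm9sf1 and Sdr39u1. DESeq2 called 1 of 42 members, Dcaf11, against 5.6% of all genes. Each control diet cage held both genotypes, and with cage as a factor in the edgeR fit 1 of 42 members was called (2.38%), again Dcaf11 (log2 fold change -0.296, adjusted p = 0.0275), against 1128 of all genes (6.52%). The share over all genes also moved with single mice. It rested on 250 calls, which became 31 to 77 without WT-CD replicate 1, 2, 3 or 4, 87 without R403Q-CD replicate 5, 424 without R403Q-CD replicate 1 and 1045 without R403Q-CD replicate 3.

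On the EMPA diet 0 of 42 members passed the adjusted threshold, against 0.0578% of all genes (10 calls, and 1 to 64 over the fits that each left out a mouse). With cage as a factor 0 members and 0 genes were called. The unadjusted threshold was passed by 5 members (11.9%, against 14.7% of all genes), of which Slc7a7, Nedd8, Ngdn and Jph4 were higher and Dcaf11 was lower in R403Q-EMPA. DESeq2 called 1 of the 39 members to which it gave an adjusted p, Slc7a7, against 1.86% of all genes.

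Averaged over both diets, 3 of 42 members passed the adjusted threshold (7.14%), against 10.9% of all genes. Slc7a7 and Jph4 rose and Dcaf11 fell. The unadjusted threshold was passed by 13 members (31%), against 29% of all genes, 7 of them higher and 6 lower. DESeq2 called 3 of 39 members (7.69%), against 16.8% of all genes, and these were Slc7a7, Tm9sf1 and Dcaf11. With cage as a factor 1 of 42 members was called on average (2.38%), Dcaf11, against 5.45% of all genes. Without WT-CD replicate 1 or 4, WT-EMPA replicate 1 or R403Q-EMPA replicate 1 or 3, the calls over all genes fell from 1883 to between 961 and 1185. In the averaged comparison the shares of members called by edgeR, by DESeq2 and with cage as a factor were each below that over all genes. These fits used the same mice, and counts this small do not set the members apart from all genes.

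**Figure D1:**
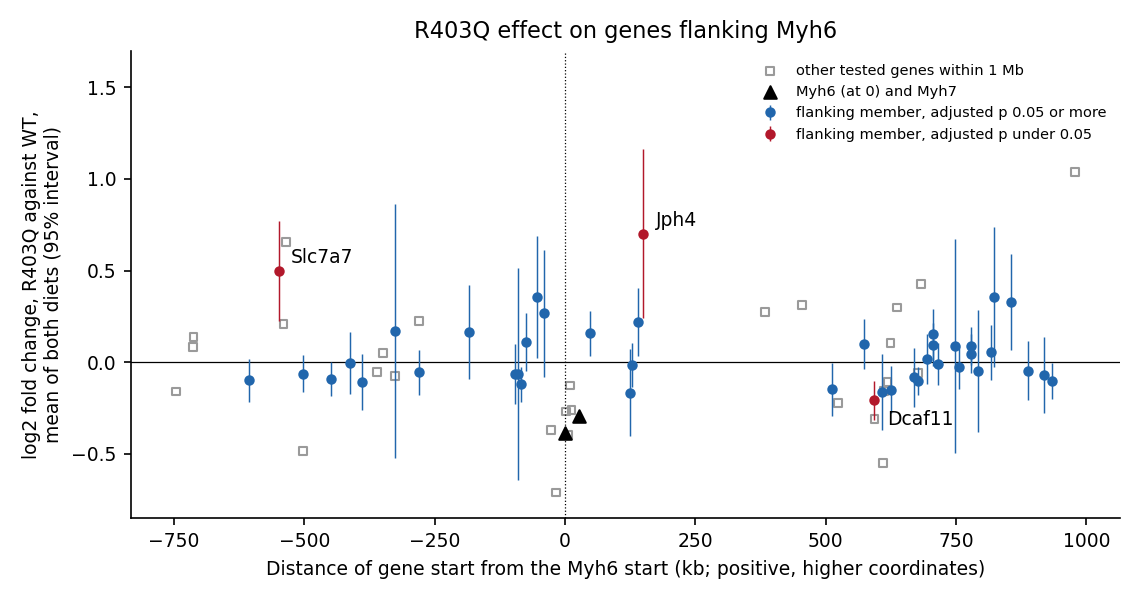
log2 fold change of R403Q against WT, averaged over both diets (vertical axis, bars are 95% intervals), against the distance of each gene's start from the Myh6 start in kb (horizontal axis). Circles are the 42 tested members, red where the adjusted p was under 0.05, squares are the other tested genes within 1 Mb and triangles are Myh6 and Myh7. Most members sit near 0 on both sides of Myh6, and the 3 red members lie at -549.1, 150 and 593.1 kb.

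Dcaf11, which encodes a WD-repeat substrate receptor of CUL4 ubiquitin ligases, was the only member whose genotypes were fully separated on both diets. Its gene (ENSMUSG00000022214, chr14:55560006-55570065) starts 593.1 kb from that of Myh6. In WT-CD mice it was at 194, 192, 206, 208 and 198 CPM. In R403Q-CD mice the lowest value was 134, the median 178 and the highest 183 CPM. In WT-EMPA mice it was at 206, 187, 193, 200.5 and 187 CPM, and in R403Q-EMPA mice at 177, 168, 163 and 184 CPM. Every R403Q mouse lay below every WT mouse on the same diet. Across all genes such a separation on both diets and in the same direction was seen in 0.584%, against 1 of 42 members (2.38%). On the control diet alone it was seen in 2.12% of all genes and 1 of 42 members, and on the EMPA diet alone in 6.77% and 1 of 42.

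The averaged log2 fold change of Dcaf11 was -0.21 (SE 0.051, 95% interval -0.32 to -0.10, edgeR adjusted p = 0.0152), a level 13.5% lower in R403Q hearts. It was -0.25 on the control diet (adjusted p = 0.0585, and 0.0275 with cage as a factor) and -0.17 on EMPA (adjusted p = 0.302). R403Q mice were below their WT cage mates in 6 of 6 cages. All 6 cages also went in 1 direction for Adcy4, Dhrs4, Jph4, Nfatc4, Oxa1l, Prmt5, Rec8, Slc22a17 and Tm9sf1, called or not. A cage could hold as few as 1 mouse of a genotype, and the share over all genes was not determined. The Dcaf11 call held in 26 of 26 alternatives, with log2 fold changes from -0.23 to -0.15 and adjusted p from 0.0012 to 0.0373. R403Q-CD replicate 2, the library that stood apart, was the lowest of all mice, and without it the averaged value was -0.19. By its p, Dcaf11 ranked 574 among all genes in the averaged comparison. Of the 7 cardiomyocyte markers 0 were called there. All 6 fibroblast markers had a positive log2 fold change, and 2 of them (Dcn and Lum) were called. All 6 macrophage markers were called and rose. The part of these markers in the Dcaf11 result was not tested.

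Nedd8, the ubiquitin-like protein that is attached to cullins and switches their ligases on, starts 705.2 kb from Myh6 and did not pass the test. In WT-CD it was at 82.0, 82.4, 91.9, 92.6 and 92.1 CPM and in R403Q-CD between 85.6 and 110 CPM, with a median of 90.9. In WT-EMPA it was at 62.0, 75.6, 92.5, 83.7 and 71.4 CPM and in R403Q-EMPA at 108, 86.9, 86.9 and 78.1 CPM. The genotypes overlapped on both diets, and the averaged log2 fold change was 0.15 (SE 0.068, adjusted p = 0.141). Without R403Q-EMPA replicate 1 it was 0.10, and the EMPA value went from 0.22 to 0.12. Nedd8 had the second highest level per exon length of the tested members, at 69.1 CPM per kb.

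Among the 10 tested members with roles in protein modification, ubiquitin and trafficking, Dcaf11 was the 1 that passed the edgeR test with all mice on average (10%), against 10.9% of all genes. Dcaf11 included, 7 of the 10 had a negative and 3 a positive averaged log2 fold change, with a median of -0.07, where 8175 of all 17309 genes were negative. Tm9sf1, an endosomal membrane protein, was at 26.9 to 28.9 CPM in WT-CD and 23.1 to 27.9 in R403Q-CD, and these ranges overlapped. Its averaged log2 fold change was -0.10 (SE 0.038, edgeR adjusted p = 0.0777), and it was lower in R403Q mice in 6 of 6 cages. DESeq2 called it on average (-0.11, adjusted p = 0.0398), as did edgeR without R403Q-CD replicate 3 (adjusted p = 0.0385). Its exons share 17.7% of their length with an overlapping gene on the same strand, where reads cannot be told apart between the 2 genes. Prmt5, an arginine methyltransferase, was at 40.8 ± 2.7 CPM in WT-CD, 37.3 ± 2.7 in R403Q-CD, 40.8 ± 2.6 in WT-EMPA and 39.4 ± 2.0 in R403Q-EMPA (SD). With library size alone the averaged values of Tm9sf1 and Prmt5 were -0.04 and -0.03. Prmt5 was lower in R403Q mice in 6 of 6 cages, but its adjusted p was 0.181. Ap1g2, a gamma adaptin of clathrin coats that starts 139.7 kb from Myh6, went the other way with 0.22 (SE 0.089, adjusted p = 0.106).

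**Figure D2:**
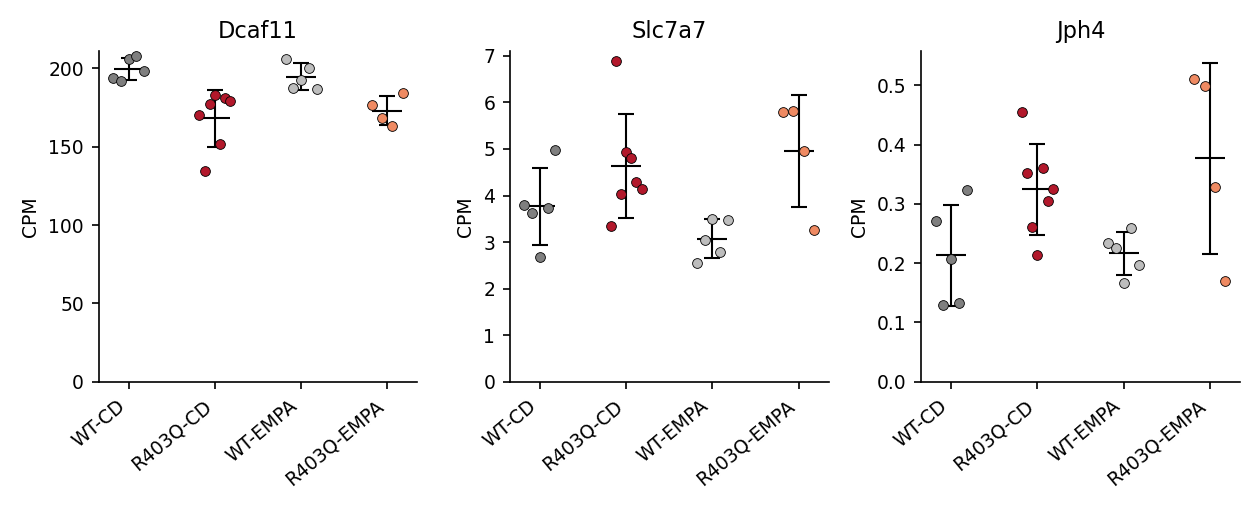
CPM (vertical axes, from 0) of Dcaf11, Slc7a7 and Jph4 in each mouse, by group. Points are mice, and horizontal lines with bars give the mean and SD. For Dcaf11 all R403Q mice lie below all WT mice on the same diet, whereas for Slc7a7 and Jph4 the genotypes overlap.

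Slc7a7, the light chain of a transporter of cationic amino acids, rose in R403Q hearts over both diets. The gene (ENSMUSG00000000958, chr14:54369442-54417780) starts at -549.1 kb, counted from the Myh6 start, with negative values for lower coordinates. In WT-CD it was at 3.80, 3.63, 2.68, 3.73 and 4.99 CPM, and in R403Q-CD it ran from 3.34 to 6.89 CPM with a median of 4.30. In WT-EMPA it was at 2.55, 3.05, 3.49, 2.79 and 3.48 CPM and in R403Q-EMPA at 5.80, 5.81, 4.95 and 3.27 CPM. The genotypes overlapped on both diets, on EMPA through 1 R403Q mouse that lay among the WT mice. The averaged log2 fold change was 0.50 (SE 0.133, 95% interval 0.22 to 0.77, edgeR adjusted p = 0.0228), with 0.30 on the control diet (adjusted p = 0.328, and 0.17 without R403Q-CD replicate 2) and 0.70 on EMPA (adjusted p = 0.135).

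Slc7a7 is also expressed by macrophages, and macrophage markers moved with it. All 6 of the macrophage genes listed (Cd68, Csf1r, Adgre1, C1qa, C1qb and Cd14) rose in the same averaged comparison, and none was at 0 in all mice. Their summed level was 143 to 202 CPM in WT-CD, 198 to 355 in R403Q-CD, 116 to 197 in WT-EMPA and 224 to 289 in R403Q-EMPA. Their part in the Slc7a7 result was not tested. R403Q mice were higher than their WT cage mates in 4 of 6 cages, and with cage as a factor the call was lost (log2 fold change 0.46, adjusted p = 0.102). It was also lost without R403Q-EMPA replicate 1 (0.46, adjusted p = 0.0578) and without replicate 2 of that group (0.45, adjusted p = 0.0531).

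The other members of membrane transport were also higher, without a call. Slc22a17, a receptor for lipocalin-2 that starts at -53.8 kb, was at 2.87 ± 0.64 CPM in WT-CD, 3.64 ± 1.26 in R403Q-CD, 2.70 ± 0.39 in WT-EMPA and 3.49 ± 0.47 in R403Q-EMPA (SD). Its averaged log2 fold change was 0.36 (SE 0.161, adjusted p = 0.145), and it passed the threshold in 1 of 26 alternatives, without R403Q-CD replicate 3 (adjusted p = 0.0258). Slc7a8, another amino acid transporter light chain, had a value of 0.16 (adjusted p = 0.397).

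Jph4, a junctophilin that ties the endoplasmic reticulum to the plasma membrane and is best known from neurons, was the third member called. The gene (ENSMUSG00000022208, chr14:55106826-55116935) starts 150 kb from Myh6 and had the lowest level per exon length of the 42 tested members, at 0.04 CPM per kb. In WT-CD it was at 0.271, 0.130, 0.207, 0.133 and 0.324 CPM, and in R403Q-CD between 0.213 and 0.454 CPM with a median of 0.325. In WT-EMPA it was at 0.234, 0.226, 0.166, 0.259 and 0.197 CPM and in R403Q-EMPA at 0.510, 0.498, 0.328 and 0.170 CPM. The groups overlapped on both diets, and a level of 3 counts corresponded to between 0.0621 and 0.127 CPM in these libraries.

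The averaged log2 fold change of Jph4 was 0.70 (SE 0.222, 95% interval 0.24 to 1.16, edgeR adjusted p = 0.0464). It was 0.17 with limma on the deposited log2 variance-stabilized values (adjusted p = 0.0656), where Slc7a7 was at 0.33 (adjusted p = 0.0284). Variance stabilization shrinks differences at low counts, so these values are not on the scale of the edgeR log2 fold changes. R403Q mice were above their WT cage mates in 6 of 6 cages. The call held in 5 of 25 alternatives and was lost in 20, with adjusted p up to 0.121, among them 17 of the 21 fits that each left out a single mouse. With cage as a factor it was lost as well (log2 fold change 0.65, adjusted p = 0.0963). DESeq2 gave Jph4 no adjusted p for the average. The neuron markers Snap25 and Rbfox3 were at 0 to 0.24 CPM in sum and were too low to be tested.

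Of the 4 listed members nearest to Myh6 on each side, 7 could be tested and 0 passed on either diet or on average, against 1.44, 0.0578 and 10.9% of all genes on the control diet, on EMPA and on average, shares at which 0 of 7 is no result about the nearest genes. Efs, an adaptor bound by Src kinases, starts at -40.8 kb and had an averaged log2 fold change of 0.27 (SE 0.166, adjusted p = 0.297), which fell to 0.17 without R403Q-CD replicate 2. With limma on the variance-stabilized values, a scale that shrinks differences at low counts, Efs was at 0.14. Its R403Q-CD mice spread from 1.59 to 5.01 CPM, around the 1.93 to 3.04 CPM of the WT-CD mice. Pabpn1, the nuclear poly(A)-binding protein, was at 12.7 to 17.6 CPM in WT-CD and 14.5 to 18.02 in R403Q-CD, with an averaged log2 fold change of 0.11 (SE 0.076, adjusted p = 0.352). This value was 0.26 with cage as a factor (adjusted p = 0.0505), 0.17 with library size alone and 0.06 without WT-EMPA replicate 5. Its exons overlap those of a predicted gene on the same strand that also covers Bcl2l2. Cmtm5, a chemokine-like MARVEL protein and at -30.7 kb the nearest member, was at 0 to 0.474 CPM over all mice and was not tested.

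On the other side of Myh6, Ngdn was the nearest, at 48.5 kb. This factor in ribosome and messenger RNA metabolism was at 33.4, 34.3, 33.7, 34.1 and 34.6 CPM in WT-CD and 32.1 to 42.4 CPM in R403Q-CD. In WT-EMPA it was at 29.5, 26.3, 33.7, 32.3 and 30.3 CPM and in R403Q-EMPA at 40.6, 31.9, 34.7 and 35.8 CPM. The genotypes overlapped on both diets and the averaged log2 fold change was 0.16 (SE 0.059, adjusted p = 0.083). It was called only with scaling to library size alone (0.22, adjusted p = 0.0161), a scaling that moved the median of all genes from 0.01 to 0.07.

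Zfhx2, a zinc finger homeobox factor, was at 10.2 to 15.8 CPM in WT-CD, 10.1 to 19.5 in R403Q-CD, 14.4 to 19.4 in WT-EMPA and 10.3 to 16.1 in R403Q-EMPA. Its averaged log2 fold change was -0.17 (SE 0.114, adjusted p = 0.342), with 0.01 on the control diet and -0.35 on EMPA. The difference between those did not pass the test (-0.36, adjusted p = 0.999). Thtpa, a thiamine triphosphatase, was at -0.01 (SE 0.058, adjusted p = 0.895), and its exons share 56.8% of their length with a predicted gene on the same strand.

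Among the members with roles in metabolism, 11 were tested and 0 were called, where the averaged share over all genes was 10.9%, too low for a count of 0 among 11 to set them apart. Of these, 7 had a negative and 4 a positive averaged log2 fold change, from -0.16 to 0.10. Fitm1, a protein of the endoplasmic reticulum that promotes lipid droplet formation in muscle, had the highest level per exon length of all tested members, at 103 CPM per kb. In WT-CD it was at 113, 110, 134, 117 and 118 CPM, and in R403Q-CD between 54.1 and 114 CPM with a median of 98.3. In WT-EMPA it was at 99.6, 98.4, 94.8, 95.4 and 77.7 CPM and in R403Q-EMPA at 112, 91.5, 88.3 and 85.7 CPM. The log2 fold change was -0.35 on the control diet (SE 0.131, adjusted p = 0.145) and 0.02 on EMPA (SE 0.151, adjusted p = 0.968). The difference between the diets did not pass the test (0.36, 95% interval -0.05 to 0.78, adjusted p = 0.999).

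Dhrs4, a short-chain dehydrogenase/reductase that acts on retinoids, was the third highest per exon length, at 51.7 CPM per kb. It was at 86.2 to 100.4 CPM in WT-CD, 55.1 to 93.4 in R403Q-CD, 91.2 to 105 in WT-EMPA and 84.0 to 96.1 in R403Q-EMPA. R403Q mice were lower than their WT cage mates in 6 of 6 cages, and the averaged log2 fold change was -0.15 (SE 0.070, adjusted p = 0.167). Oxa1l, which inserts proteins into the mitochondrial inner membrane, was at -0.10 (SE 0.057, adjusted p = 0.248) and was also lower in 6 of 6 cages. Without R403Q-CD replicate 2, which had the lowest Fitm1 and Dhrs4 of that group, the control diet values were -0.25 for Fitm1 and -0.12 for Dhrs4.

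Of the members in cell death, signalling and immunity, 6 of 8 could be tested and 0 were called, against 10.9% of all genes on average. Ripk3, the kinase of necroptosis, had an averaged log2 fold change of 0.36 (adjusted p = 0.202). Nfatc4, a transcription factor activated by calcineurin, had 0.33 (adjusted p = 0.0886) and was higher in 6 of 6 cages. It passed without WT-CD replicate 2 (0.41, adjusted p = 0.0338). Bcl2l2, a survival protein of the Bcl-2 family, had -0.12 (adjusted p = 0.0923), and it passed without R403Q-CD replicate 2, the library that stood apart (-0.14, adjusted p = 0.0328). The 6 tested genes of RNA processing and translation lay between -0.07 and 0.16, and the 4 tested genes of DNA, chromosomes and spindle between -0.17 and -0.01, with 0 called in either group. In groups this small, 0 calls do not set them apart from all genes.

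Rec8, the meiotic kleisin subunit of cohesin, fell below the filter on low counts and is named after its values were seen. It was at 0.204, 0.208, 0.207, 0.200 and 0.224 CPM in WT-CD and at 0.0277 to 0.180 CPM in R403Q-CD, so these groups did not overlap. In WT-EMPA it was at 0.263, 0.0848, 0.0996, 0.144 and 0.168 CPM and in R403Q-EMPA at 0.0365, 0.138, 0.109 and 0.0849 CPM, which overlapped. R403Q mice were lower in 6 of 6 cages. With no filter on low counts its averaged log2 fold change was -0.93 (SE 0.351, edgeR adjusted p = 0.139), so it did not pass the test, and many of these values were near or under the level of 3 counts.

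The direction of the difference was mostly shared by the diets, which have no mouse in common. Of 42 members, 31 (73.8%) had the same sign on both, 16 higher and 15 lower in R403Q. Among all 17309 genes the share was 71.1%. Across the 42 members the log2 fold changes on both diets had a Pearson r of 0.633 and a Spearman rho of 0.585, against 0.45 and 0.515 across all genes. Genes are not independent replicates, and these values are descriptions. The difference of the R403Q effect between diets passed the adjusted threshold in 0 of 42 members and in 0% of all genes, and the unadjusted one in 0 of 42 members, against 3.28% of all genes.

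**Figure D3:**
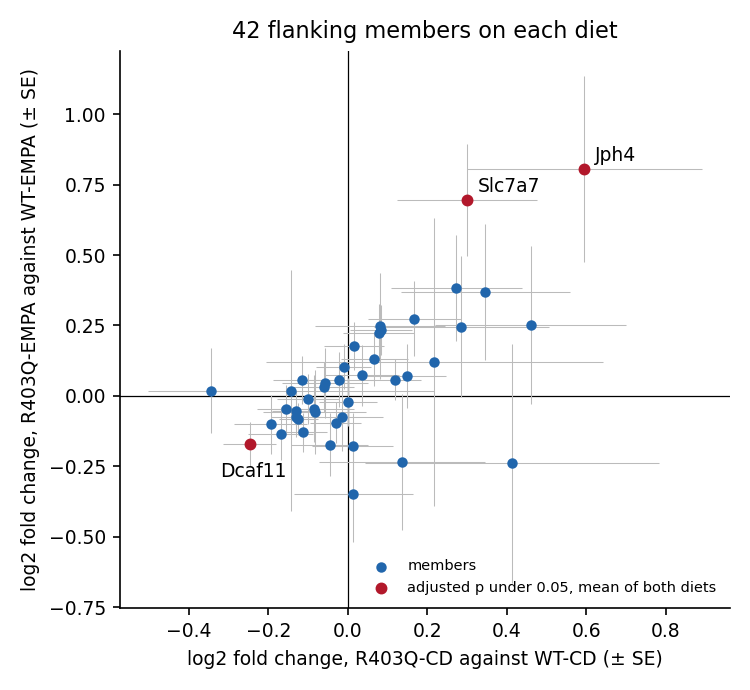
log2 fold change of R403Q-CD against WT-CD (horizontal axis) and of R403Q-EMPA against WT-EMPA (vertical axis) for the 42 tested members, with SE as bars. Red points passed the adjusted threshold on the average of both diets. Of the points, 31 lie in the lower left or upper right quadrant.

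The size of the differences was small. The median averaged log2 fold change of the members was -0.01, against 0.01 for all genes, and the median of its absolute value was 0.10 against 0.13. The 95% interval of the averaged value lay wholly within 0.5 of 0, a 1.41-fold change either way, for 33 of 42 members (78.6%) and for 68.3% of all genes. It lay within 1 of 0 for 41 of 42 members. With scaling to library size alone, 26 members were higher and 16 lower on average, where the main scaling gave 19 higher and 23 lower.

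The members that passed lay on both sides of Myh6, and none was the nearest on its side. Over the 42 members the absolute averaged log2 fold change had a Spearman rho of -0.311 and a Pearson r of -0.23 with distance. Genes are not independent replicates, and these values are descriptions. The SE differed widely between members, at 0.038 for Tm9sf1 and 0.222 for Jph4. A larger SE tends to give a larger absolute value, and its part in these correlations was not tested. Of the 15 tested members at lower coordinates 1 passed, and of the 27 at higher coordinates 2, against 10.9% of all genes. Counts this small do not set either side apart. Among all tested genes of chromosome 14 other than Myh6, the share that passed on average was 10.5% within 0.25 Mb, 9.09% from 0.25 to 0.5 Mb, 7.32% from 0.5 to 1 Mb and 21.4% (3 of 14) from 1 to 2 Mb. It was between 6.98 and 11.7% in the bins beyond. Chromosome 14 as a whole had 65 of 612 genes called (10.6%), rank 13 of the 20 chromosomes, whose shares ran from 9.56 to 13.9%.

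**Figure D4:**
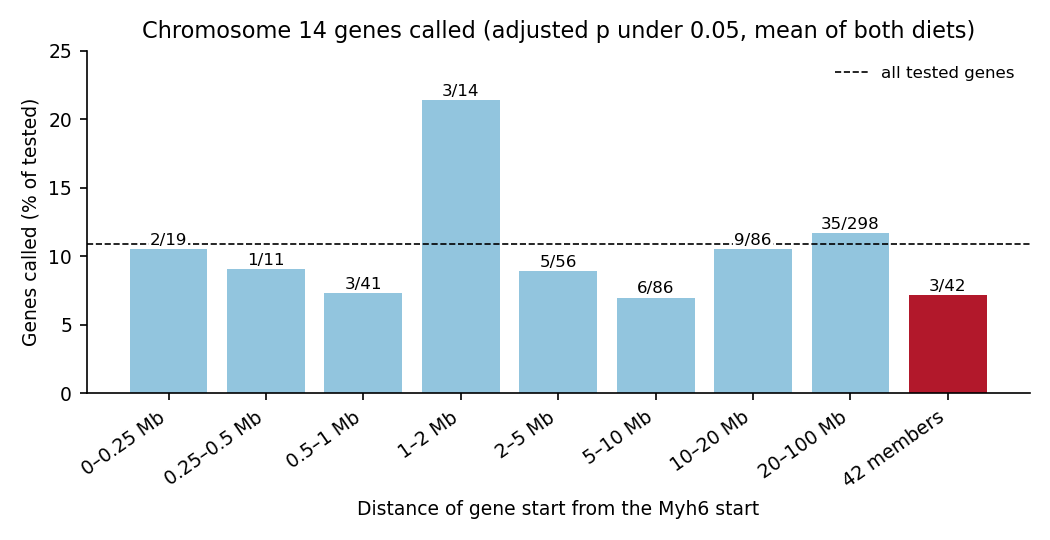
Percent of tested chromosome 14 genes with an adjusted p under 0.05 for R403Q against WT averaged over both diets (vertical axis), by distance of the gene's start from the Myh6 start, with the 42 members as the last bar. Labels give genes called and tested, and the dashed line is the share over all 17309 genes (10.9%). Most bars, that of the members included, lie near or below the line, and the highest bar holds 14 genes.

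The interval also held genes that are not on the list. Within 1 Mb of the Myh6 start, 29 such genes were tested, Myh7 counted and Myh6 left out, and 3 passed on average (10.3%). They were 1700123O20Rik at -280.7 kb (log2 fold change 0.22, adjusted p = 0.0373), Gm29015 at 6.1 kb (-0.40, adjusted p = 0.0413) and Cma1 at 977.7 kb (1.04, adjusted p = 0.0343). Cma1 encodes a chymase of mast cells and was at 0.90 ± 0.74 CPM in WT-CD, 1.81 ± 0.55 in R403Q-CD, 0.67 ± 0.38 in WT-EMPA and 1.44 ± 0.51 in R403Q-EMPA (SD). Myh6 itself was at -0.39 (SE 0.119, adjusted p = 0.0419) and Myh7 at -0.30 (SE 0.108, adjusted p = 0.0759).

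The diet changed none of the flanking genes at the adjusted threshold. In R403Q-EMPA against R403Q-CD 0 of 42 members passed, against 0.0116% of all genes, and 3 passed unadjusted, against 13.4%. In WT-EMPA against WT-CD 0 of 42 passed, against 0.0289%, and 4 passed unadjusted, against 11% of all genes. Dhrs1, a short-chain dehydrogenase/reductase, was among the unadjusted members in both and is named for that after its values were seen. It was at 36.5 to 41.9 CPM in WT-CD, 34.9 to 44.6 in R403Q-CD, 29.7 to 36.6 in WT-EMPA and 30.5 to 38.3 in R403Q-EMPA. Its log2 fold change was -0.28 in WT (adjusted p = 0.174) and -0.17 in R403Q hearts (adjusted p = 0.319), and DESeq2 called it in WT hearts (adjusted p = 0.0494).

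Some members face each other across a shared start region. Nedd8 and Gmpr2, a GMP reductase, are transcribed away from each other, with RefSeq starts 355 bases apart. Their GENCODE gene models overlap on opposite strands, with starts 183 bases apart. Dhrs1 and Nop9, a factor of ribosome assembly, start 9 bases apart in RefSeq. After subtracting each group's mean, Nedd8 and Gmpr2 varied together over the 21 mice, with a Pearson r of 0.685 (permutation p = 0.00052, adjusted over 2 pairs 0.00104). Spearman's rho was 0.431 (permutation p = 0.052, adjusted 0.104), and without the 2 mice farthest from the Nedd8 median r was 0.472. Dhrs1 and Nop9 did not show this, with a Pearson r of -0.0534 (permutation p = 0.82, adjusted 0.82) and a rho of -0.0649 (permutation p = 0.78, adjusted 0.78), and r was -0.162 without the 2 mice farthest from the Dhrs1 median. Over all 861 pairs of tested members the median r was 0.0118 and Nedd8 with Gmpr2 ranked 14.

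**Figure D5:**
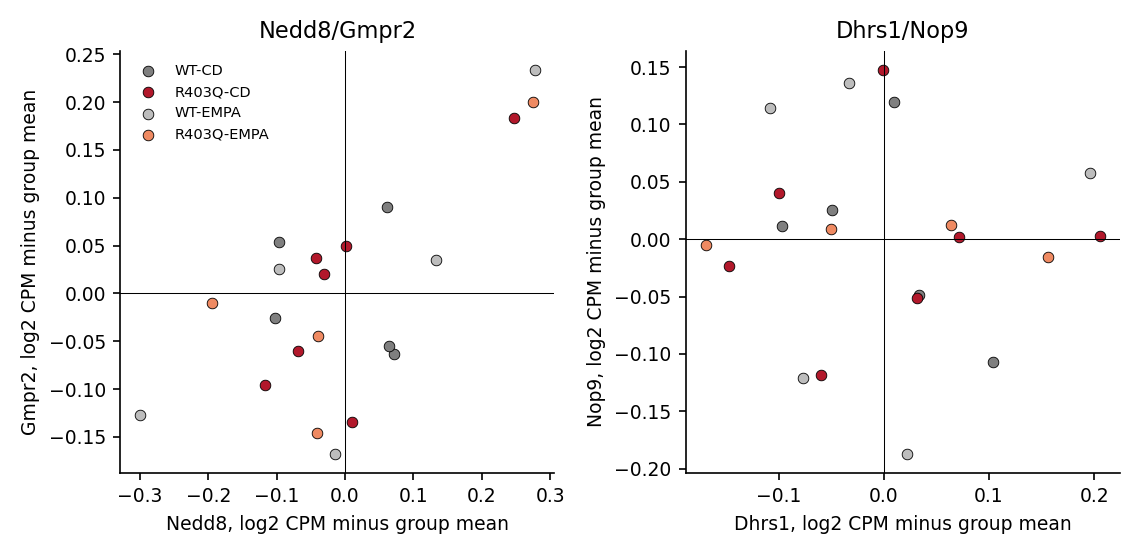
log2 CPM minus the mean of the mouse's group, for Nedd8 against Gmpr2 (left) and Dhrs1 against Nop9 (right). Each point is 1 of 21 mice, coloured by group. The Nedd8 and Gmpr2 points rise together, with 3 mice at the upper right, and the Dhrs1 and Nop9 points show no such order.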

How the data were processed

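Poly(A) RNA of the left ventricle was sequenced in 21 mice of 4 groups. Per the labels, the authors aligned reads to mm10 with STAR 2.6.0c and counted them per gene with Subread 1.6.2, after quality control with FastQC 0.11.7. The authors deposited whole-number counts per gene (Ensembl build 100 in the study's methods) and a table of log2 variance-stabilized values made with DESeq2 1.32.0. The log2 values entered only an alternative fit with limma 3.58.1.

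The counts of all genes were fitted with edgeR 4.0.16 in R 4.3.3, by the quasi-likelihood test with all 4 groups in the same fit. Low genes were removed with filterByExpr (minimum count 10), library sizes were scaled by the trimmed mean of M values, and p-values were adjusted after Benjamini and Hochberg over all tested genes. A gene was called at an adjusted p under 0.05. R403Q was compared with WT on each diet, averaged over diets and between diets, and EMPA with CD in each genotype, 6 comparisons in all. Alternatives were DESeq2 1.42.0, no filter, library size alone, fits on fewer groups, cage as a factor and leaving out each mouse. Scripts were tested on simulated data.

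Gene positions came from GENCODE release M21 (GRCm38) and promoter windows from RefSeq. Members described in full were those called, the 5 with the smallest p in each comparison of genotypes and the 4 nearest to Myh6 on each side, those without overlap of the genotypes on both diets and the 3 highest per exon length. Other members were named after their values were seen.  The rule for the members is positional, but the members and lists were chosen with earlier results of these data known. The mice are separate animals. The number of reads limits the precision of low genes, and a level of 3 counts was 0.0621 to 0.127 CPM, which covers counting error only. The counts table had 0 columns without a sample.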

Additional observations from a re-analysis of the deposited data

Results flagged for a closer look

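Single mice lay far from the rest of their group in 3 of the 64 groups of values examined, where chance gives about 1 in 20. Zfhx2 in R403Q-CD replicate 3 was at 19.51 CPM, with the next mouse at 13.34. Fitm1 in WT-EMPA replicate 5 was at 77.67 CPM, with the next mouse at 94.79. Nedd8 in R403Q-CD replicate 4 was at 110.1 CPM, with the next mouse at 93.5.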

How the results depend on the processing

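Of 766 alternative values for single genes, 724 kept their direction and side of the threshold. DESeq2 called 1 member on the control diet, 1 on EMPA and 1 for diet in WT, and over all genes 970 on the control diet, 299 on EMPA, 157 for diet in R403Q and 112 for diet in WT, where edgeR gave 250, 10, 2 and 5. Library size alone gave 5 members on average (11.9%), Ngdn and Nedd8 among them, against 2352 of all genes (13.6%), and 5 and 0 genes for diet in R403Q and WT. It moved the share of higher calls from 57.9 to 81.2% on average and from 61.2 to 77.8% on the control diet. Fits on the compared groups alone called 28 genes on the control diet, 123 on EMPA and 0 for diet in R403Q, and fits on 3 groups 98 and 0. With cage as a block, since the labels give each mouse's cage and no replicate number, 1 member was called on the control diet (Dcaf11) and 1 on average, with 1128, 0 and 944 genes on the control diet, EMPA and average. Within 2 Mb, 6 genes outside the list were called. Leaving out a mouse gave 0 to 1 members on the control diet (1 without R403Q-CD replicate 3 or 6) and 1 to 5 on average (1 without R403Q-EMPA replicate 1 or 2, 5 without R403Q-CD replicate 3), and 31 to 1045, 1 to 64, 961 to 2764, 0 to 12 and 0 to 7 genes on the control diet, EMPA, average and for diet in R403Q and WT. The averaged log2 fold change of Thtpa turned to 0.044 with library size alone, and ran from -0.036 to 0.012 over the fits without a mouse, positive without WT-EMPA replicate 5 or R403Q-EMPA replicate 3. Over such fits the diet effect on Jph4 in WT ran from -0.126 to 0.243, negative without WT-CD replicate 2 or 4 or WT-EMPA replicate 1 or 4, its difference between diets from -0.014 to 0.423, negative without WT-CD replicate 5, and the diet effect on Dcaf11 in R403Q from -0.009 to 0.065, negative without R403Q-CD replicate 2. Library size alone also moved Zfhx2 to -0.11 and Dhrs4 to -0.09, and limma gave 0.21 for Slc22a17 on the variance-stabilized scale. The causes were not tested.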
